A study of Mus musculus with 8 samples.

Results

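The expression of 10 antioxidant enzyme genes was examined in mouse multipotent progenitors (MPPs), with the mitochondrial peroxiredoxin gene Prdx3 set against its paralogs. The 10 genes were Prdx1 to Prdx6, the mitochondrial thioredoxin gene Txn2 and its reductase gene Txnrd2, and the superoxide dismutase genes Sod1 and Sod2. They were taken by gene symbol from a table of 37980 Ensembl gene rows, and all 10 were found in it. The list was chosen by gene name with the normalised counts of NA and WT MPPs and the NA against WT difference of Prdx3 already known, so the values of these 10 genes are a description and carry no p-value.

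RNA was sequenced from 4 NA and 4 WT libraries, named NA1 to NA4 and WT1 to WT4, each made from 1000 MPPs sorted from bone marrow. The sort took Lin-CD48-ckit+Sca1+CD135+CD150- cells of C57BL/6 mice in both groups. NA mice carried the Nup98-Hoxa10hd fusion gene, which joins part of a nuclear pore protein to the homeodomain of Hoxa10. In them the allele was NALSL/+ with Vav-Cre, which removes a stop cassette in blood cells, and the control mice were WT. The ages of the mice were not given in the sources used here. Nothing states that libraries of a group came from separate animals, so p-values measure only the spread between these libraries, which may be technical.

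Depth was estimated at 3877029 to 4916903 reads per library. Hoxa10, whose homeodomain is part of the fusion, averaged 324 ± 32.0 normalised counts in NA and 139 ± 8.0 in WT (SD, n = 4). A normalised count is the number of reads of a gene after the authors divided each library by 1 size factor. Xist averaged 1.92 in NA and 1104 in WT, and the Y-linked Eif2s3y averaged 604 and 0.222, so sex and genotype cannot be told apart. NA4 and WT4 stood apart because each correlated more closely with a weighted sum of the other 3 libraries of its group (r = 0.987 and 0.993 over 11431 genes) than the remaining 6 did (0.957 to 0.979). Whether NA4 and WT4 are independent of the other libraries of their group was not tested. The p-values and SDs from all 8 libraries treat them as independent, and may be too small if they are not. The values of the 10 genes and the calls of other redox genes are therefore also described without NA4 and WT4. The 6 sorting gate genes were detected, with summed counts of 7365 to 7690 in NA and 7550 to 8005 in WT, but they did not all stay level. Cd48, a gate the cells lack, averaged 17.7 in NA and 56.1 in WT (limma adjusted p = 0.00711), and Ly6a, which encodes Sca1, 1277 and 1548 (limma adjusted p = 0.0257). Summed counts of 8 immediate early genes were 34330 to 39150 in NA and 3526 to 10170 in WT, those of 9 lymphoid genes 158.9 to 266 and 405 to 511, those of 8 monocyte and macrophage genes 62.8 to 75.6 and 134 to 155, those of 10 granulocyte genes 1390 to 1709 and 1754 to 2640, and those of 6 mast cell and basophil genes 1068 to 1257 and 813 to 1014. These 5 sums did not overlap between the groups. The mast cell and basophil sum was mostly Gata2, at averages of 1166 and 930. Of its other genes, 3 were listed at 0 in every library, and Cpa3 overlapped between the groups (averages of 12.1 and 8.86). The sum of 10 erythroid genes overlapped (4522 to 5166 and 4626 to 4863) but was mostly Car2, at averages of 4772 and 4523. Within that list Hbb-bt averaged 41.2 in NA and 163 in WT (limma adjusted p = 6.79e-05), and Car1 was listed at 0 in NA and averaged 29.0 in WT. The granulocyte sum was mostly Prtn3, at averages of 1523 and 2028 (limma adjusted p = 0.0181), and Elane was listed at 0 in every library. The part of these differences in the results was not tested.

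Peroxiredoxins remove hydrogen peroxide and organic peroxides with a cysteine that is oxidised in each reaction cycle. Prdx1 and Prdx2 act in the cytosol, Prdx3 in the mitochondrial matrix and Prdx4 in the endoplasmic reticulum. Prdx5 is found in several compartments, including mitochondria, and Prdx6 draws on glutathione rather than thioredoxin. In mitochondria, Sod2 converts superoxide into hydrogen peroxide, Prdx3 reduces the peroxide, Txn2 recycles Prdx3, and Txnrd2 recycles Txn2 at the expense of NADPH. Blood stem and progenitor cells are known to be sensitive to the level of reactive oxygen species.

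The sequences around the peroxide-reacting cysteine are shown because they set Prdx3 beside the paralogs with which it is compared. Each is a stretch of 45 bases of coding sequence read 5′ to 3′ from the GENCODE M21 transcript, with 7 codons on each side of the cysteine codon, which is in capitals.
Prdx1: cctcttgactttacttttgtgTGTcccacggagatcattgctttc
Prdx2: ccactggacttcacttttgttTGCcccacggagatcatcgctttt
Prdx3: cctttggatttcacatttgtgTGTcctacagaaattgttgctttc
Prdx4: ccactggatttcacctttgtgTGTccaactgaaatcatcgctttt
Prdx5: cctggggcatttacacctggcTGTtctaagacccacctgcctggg
Prdx6: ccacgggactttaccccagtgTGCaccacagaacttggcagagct
Of the 45 bases, Prdx4 shared 36 with Prdx3 at the same position, Prdx1 35 and Prdx2 32. Prdx6 shared 24 and Prdx5 21. The cysteine was codon 109 of 257 in Prdx3, codon 52 of 199 in Prdx1 and codon 51 of 198 in Prdx2. No stretch of 50 bases of the Prdx3 transcript was found in a transcript of another gene, so reads of that length from Prdx3 could be told apart from those of its paralogs. Prdx3 lies on chromosome 19 at 60864051 to 60874556 of GRCm38 (mm10), on the minus strand, and the annotation gives it 1 coding transcript of 1478 bases.

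Prdx3 was higher in NA MPPs than in WT MPPs. It had 792, 818, 697 and 862 normalised counts in NA1 to NA4, and 246, 282, 236 and 226 in WT1 to WT4. Every NA library lay above every WT library, with a wide gap between the lowest NA and the highest WT value. The means were 792 ± 69.8 and 247 ± 24.3 (SD, n = 4), a ratio of 3.20 and a log2 difference of 1.68 with a standard error of 0.109. Without NA4 and WT4 the means were 769 ± 63.5 and 254.5 ± 24.3, a ratio of 3.02. In such bulk libraries, more RNA per cell and more cells that express the gene cannot be told apart.

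**Figure D1:**
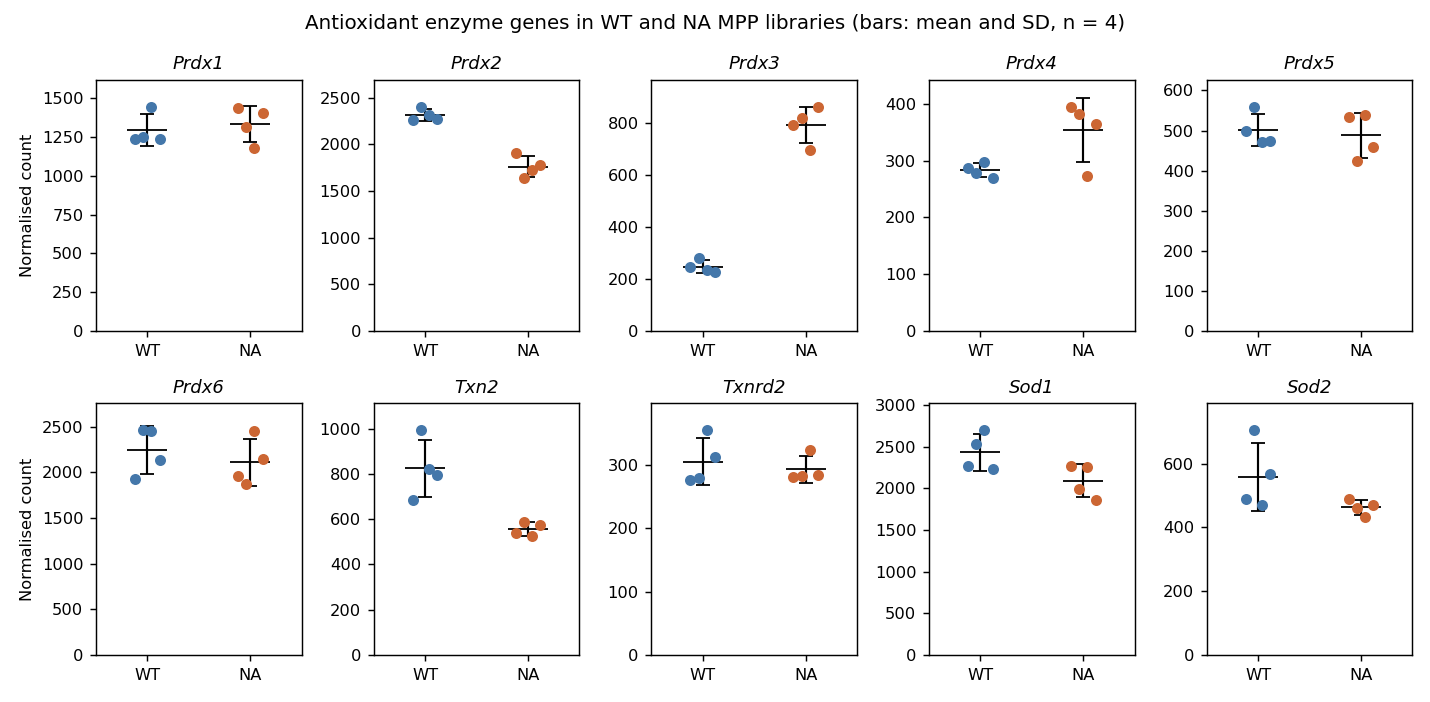
Normalised counts (y axis, from 0) of the 10 antioxidant enzyme genes in the 4 WT and 4 NA libraries. Each point is a library and the bars give the mean and SD; Prdx3 is separated upwards in NA, Prdx2 and Txn2 are separated downwards, and the other 7 genes overlap.

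Of the 10 genes, Prdx3 alone had all 4 NA values above all 4 WT values, a pattern that 11.5% of the 11451 genes tested had. Prdx2 and Txn2 had all NA values below all WT values, which 10.5% of the tested genes had. The other 7 genes overlapped between the groups. With NA4 and WT4 left out, Prdx3, Prdx2 and Txn2 stayed separated in the same direction, and the other 6 genes besides Sod1 overlapped. All NA values of Sod1 then also lay below its WT values, but only just, with NA1 at 2270.2 and WT1 at 2270.9. Such separation is easier to reach with 3 libraries per group than with 4, and its share over all tested genes was not counted. The NA mean was above the WT mean for 3 genes and below it for 7, and the median log2 difference over the 10 was −0.07, beside −0.01 over all tested genes. The SD within a group was 2.9% to 19.1% of the mean.

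The cytosolic paralogs Prdx1 and Prdx2 did not follow Prdx3. Prdx2 had 1902, 1638, 1723 and 1778 normalised counts in NA1 to NA4, and 2256, 2403, 2316 and 2270 in WT1 to WT4. All NA libraries were lower, with a log2 difference of −0.39, and −0.41 without NA4 and WT4. Prdx2 overlaps Junb and Rnaseh2a on the opposite strand, and the sources used here do not say whether counting used strand. Junb, an immediate early gene, ranged from 402 to 2321 normalised counts over the 8 libraries, and 18.2% of the 50-base stretches of Prdx2 transcripts were shared with other genes. The part of these shared stretches in the Prdx2 values was not tested. Prdx1 had 1438, 1312, 1181 and 1406 in NA and 1238, 1251, 1444 and 1237 in WT. The groups overlapped, the means were 1334 ± 115 and 1292 ± 101, and the log2 difference of 0.04 changed sign under some other settings (−0.02 to 0.10).

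Among the other paralogs, Prdx4 came nearest to Prdx3 in direction. Prdx4, the enzyme of the endoplasmic reticulum, had 395, 383, 272 and 365 normalised counts in NA and 288, 279, 298 and 270 in WT. Libraries NA1, NA2 and NA4 were above all WT libraries and NA3 was not, and the log2 difference was 0.30. Prdx4 lies on chromosome X, and sex and genotype cannot be told apart in these libraries. Prdx5 ranged from 425 to 538 in NA and from 471 to 559 in WT, and its log2 difference of −0.04 changed sign under some settings (−0.11 to 0.02). Prdx5 shares bases with Trmt112 on the other strand, so 24.2% of its 50-base stretches were not its own. Prdx6 ranged from 1872 to 2456 in NA and from 1926 to 2459 in WT, with a log2 difference of −0.09. For both genes the ranges of the groups lay largely on top of each other.

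As a share of the family, Prdx3 took a larger part in NA. Counts were divided by the mean length of the transcripts of each gene and summed over Prdx1 to Prdx6 in each library. Prdx3 made up 9.53%, 10.8%, 8.83% and 10.6% of that sum in NA1 to NA4, and 3.23%, 3.36%, 2.81% and 2.94% in WT1 to WT4. The shares did not overlap and averaged 9.93% ± 0.92 and 3.09% ± 0.26 (SD, n = 4), a difference of 6.85 percentage points. The shares were 9.72% and 3.14% without NA4 and WT4, 6.59 points apart. Length mattered to it, since it was 8.0 points with no division by length and 9.56 points with the longest transcript of each gene. The share of Prdx2 was 24.3% ± 0.64 in NA and 31.8% ± 1.03 in WT. Prdx1 (24.3% and 23.5%), Prdx4 (6.81% and 5.44%), Prdx5 (11.3% and 11.6%) and Prdx6 (23.4% and 24.7%) had mean shares closer to each other. The summed level of the 6 genes was 5402 ± 223 counts per kb in NA and 5427 ± 288 in WT, a smaller difference than the spread between libraries.

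**Figure D2:**
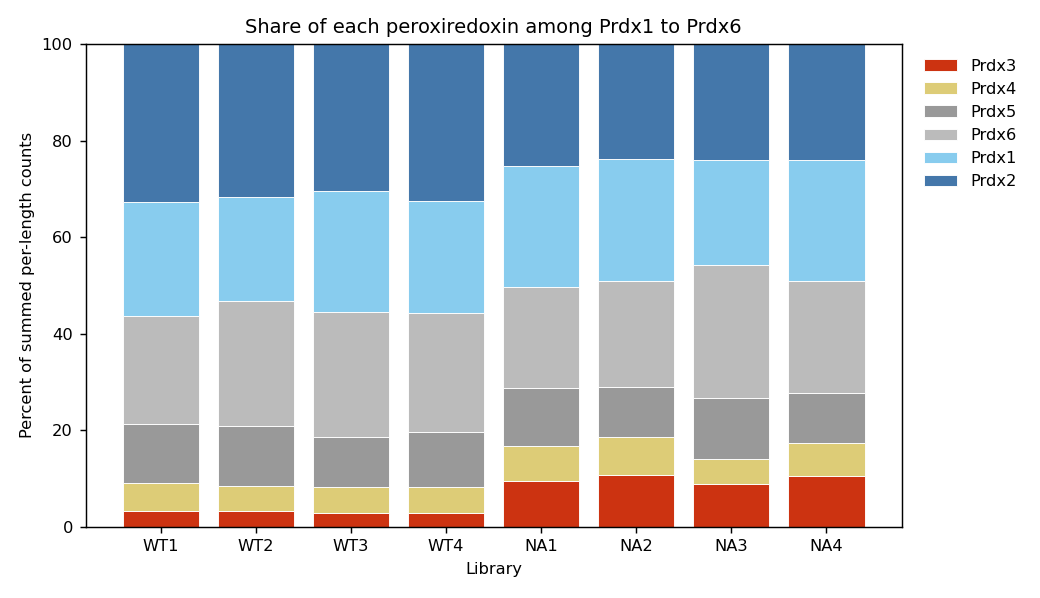
Share (y axis, percent) of each peroxiredoxin gene in the summed normalised counts per kb of transcript of Prdx1 to Prdx6, 1 bar per library. The Prdx3 segment at the base spans 2.81% to 3.36% in WT and 8.83% to 10.8% in NA, and the Prdx2 segment at the top is smaller in NA.

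The partners that recycle Prdx3 in mitochondria were not higher with it. Txn2 had 538, 589, 527 and 574 normalised counts in NA1 to NA4, and 685, 993, 824 and 797 in WT1 to WT4. All NA libraries were below all WT libraries, with means of 557 ± 29.4 and 825 ± 127 and a log2 difference of −0.55, and −0.58 without NA4 and WT4. Per kb of transcript, Prdx3 stood at 1.11 ± 0.064 times the level of Txn2 in NA and at 0.236 ± 0.029 times in WT. Txnrd2 had 281, 282, 323 and 284 in NA and 275, 279, 354 and 312 in WT. These overlapped, and the log2 difference of −0.06 changed sign under some settings (−0.12 to 0.02). The ratio of Prdx3 to Txnrd2 per kb was 2.62 ± 0.377 in NA and 0.792 ± 0.152 in WT. Without NA4 and WT4 the ratio to Txn2 was 1.085 and 0.241, and that to Txnrd2 was 2.52 and 0.823. The size of these ratios rests on mean transcript lengths, and the longest Txn2 transcript has 2049 bases against a mean of 1150.5. Another length would scale both groups alike.

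The superoxide dismutases overlapped between the groups. Sod1, the copper and zinc enzyme of the cytosol, had 2270, 1989, 2256 and 1861 normalised counts in NA and 2271, 2536, 2696 and 2228 in WT. The highest NA library, NA1, was above WT4 and below the other 3 WT libraries, with a log2 difference of −0.22. Without NA4 and WT4 the 3 NA values lay just below the 3 WT values, at means of 2172 ± 158 and 2501 ± 215. Sod2, the manganese enzyme of mitochondria, had 488, 460, 432 and 471 in NA and 489, 704, 470 and 569 in WT. The spread was wider in WT, where WT2 was highest, and the log2 difference was −0.25.

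The order of the 10 genes differed between groups mainly at Prdx3. On the scale of normalised counts per kb of transcript, Sod1 was highest in both groups, at 3795 ± 347 in WT and 3267 ± 315 in NA. In WT, Prdx2 came next (1724 ± 49.5), followed by Prdx6 (1341 ± 156) and Prdx1 (1272 ± 99.5), whose ranges overlapped. Below them Txn2 (717 ± 111) and Prdx5 (627 ± 51.2) overlapped, and Prdx4 followed at 295 ± 12.7. Txnrd2 (215 ± 25.9), Sod2 (177 ± 33.7) and Prdx3 (167 ± 16.5) were lowest in WT, and each overlapped the next. In NA, Prdx1 (1313 ± 113), Prdx2 (1313 ± 82.6) and Prdx6 (1260 ± 154) overlapped. Prdx3 (536 ± 47.2) was sixth in NA, between Prdx5 (611 ± 70.1) and Txn2 (484 ± 25.6), and its range overlapped both. It was above Prdx4 (368 ± 57.8), Txnrd2 (206 ± 14.5) and Sod2 (147 ± 7.48) in NA. Without NA4 and WT4, Prdx3 was again lowest in WT (172) and sixth in NA (520). The order differed only in that Prdx2 stood above Prdx1 in NA, where the pair overlapped. These ranks rest on mean transcript lengths. The longest transcripts of Sod2 (5861 bases, mean 3156) and Txnrd2 (2874, mean 1418.9) exceed their means, while Prdx3 has 1478 in both. With the longest transcripts Prdx3 would not be lowest in WT.

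**Figure D3:**
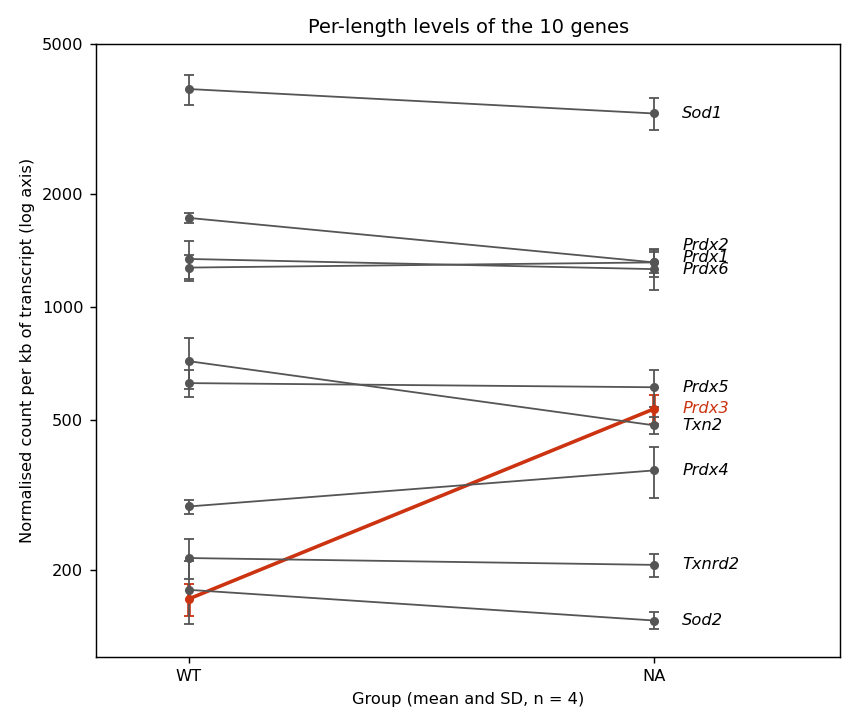
Normalised counts per kb of mean transcript length (y axis, log scale) of the 10 genes in WT and NA, as mean and SD of 4 libraries. Lines join the means of a gene. The Prdx3 line, in red, runs from the lowest mean in WT (167) to the sixth in NA (536), while those of Txn2 and Prdx2 slope down.

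The wider redox network was examined through 7 lists of 106 genes, of which 95 could be tested with limma. The lists were chosen with earlier results of these data known, so their shares and p-values are not an independent test. Of the 95, 8 were higher in NA (8.4%) and 12 lower (12.6%) at an adjusted p below 0.05, beside 10.1% and 7.87% of all tested genes. At an unadjusted p below 0.05, 14 were higher and 19 lower, where 16.9% and 15.6% of all tested genes were. The median log2 difference of the 95 was −0.08. Over all genes 1152 were higher and 901 lower, and with libraries scaled to their totals 925 were higher and 1314 lower. Of the 20 calls, 6 held in each of the alternative settings run, namely those of Cat, Gpx1, Gsr, Mgst3, Nadk2 and Ncf1. Mgst3 was tested in 18 of the 19 settings, as it was too low for the one that required a mean of at least 50. Without NA4 and WT4, 4 of the 95 were called higher and 2 lower, and the other 14 of the 20 calls were lost, with limma adjusted p-values of 0.0729 to 0.271. In what follows, adjusted p-values are Benjamini-Hochberg values from limma over the 11451 genes tested.

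**Figure D4:**
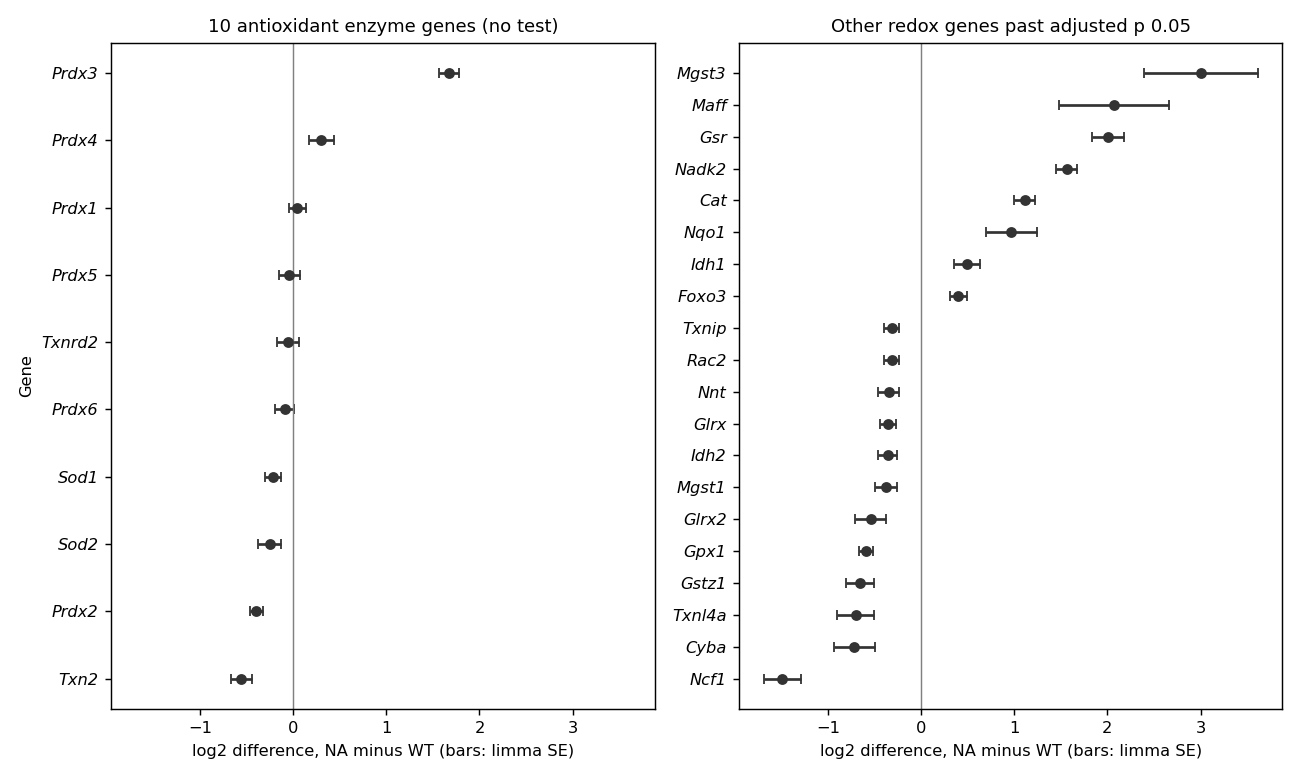
Log2 difference, NA minus WT (x axis), with the limma standard error for the 10 antioxidant enzyme genes on the left and the 20 other redox genes past the threshold on the right. Prdx3 (1.68) lies far to the right of its paralogs, and on the right panel Mgst3, Maff, Gsr, Nadk2 and Cat exceed 1 while Ncf1 is lowest at −1.49.

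Of 10 tested genes for other ways of removing peroxide, 1 rose and 1 fell, beside 10.1% and 7.87% of all tested genes. The median log2 difference was −0.20. Cat, the catalase of peroxisomes, had 1096, 1029, 1132 and 1029 normalised counts in NA1 to NA4, and 487, 412, 605 and 495 in WT1 to WT4. The NA values were all above the WT values, with a log2 difference of 1.11 (limma adjusted p = 1.67e-05). Gpx1, the most abundant glutathione peroxidase among the listed genes, had 3236, 3001, 3630 and 2974 in NA and 4918, 4829, 4815 and 4732 in WT. All NA values were lower, with a log2 difference of −0.59 (limma adjusted p = 0.000156).

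The 18 thioredoxin and glutaredoxin genes held no higher call at the limma adjusted threshold and 4 lower ones (22.2%). Over all tested genes the shares were 10.1% and 7.87%. At an unadjusted limma p below 0.05, 2 were higher and 4 lower, beside 16.9% and 15.6% of all tested genes. The median was −0.13. All 4 lower calls at the adjusted threshold were lost without NA4 and WT4. Their limma adjusted p-values were then 0.101 for Txnip, 0.0729 for Txnl4a, 0.128 for Glrx and 0.230 for Glrx2. Txnip, which binds and inhibits thioredoxin, fell by 0.32 on the log2 scale (limma adjusted p = 0.0188), a call that was also lost without WT1 or without WT4. The glutaredoxin Glrx fell by 0.36 (limma adjusted p = 0.0136), a call lost without WT4. The mitochondrial Glrx2 fell by 0.54 (limma adjusted p = 0.0394), a call lost without NA3, NA4, WT1, WT2 or WT4. Txnl4a, which is named after thioredoxin and belongs to the spliceosome, fell by 0.70 (limma adjusted p = 0.0258, lost without NA2, WT2 or WT3). Txn1, the thioredoxin of the cytosol, averaged 1133 ± 128 normalised counts in NA and 970 ± 31.9 in WT, a log2 difference of 0.22 that did not pass (limma adjusted p = 0.115).

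Of 22 tested glutathione genes, 2 rose and 2 fell (9.1% each, beside 10.1% and 7.87% of all tested genes). The median was −0.02. Gsr, which reduces oxidised glutathione with NADPH, had 339.8, 466, 467 and 441 normalised counts in NA and 106, 144, 84.3 and 94.1 in WT. The ratio of the means was 4.01 and the log2 difference 2.01 (limma adjusted p = 4.39e-06). Mgst3, a glutathione transferase of membranes, had 103, 93.1, 76.6 and 56.7 in NA and 8.88, 28.3, 1.14 and 16.0 in WT. Its WT values were low and scattered, with a log2 difference of 3.01 (limma adjusted p = 0.00426) that was 2.26 without WT3 and 3.52 without WT2. Gstz1 fell by 0.65 (limma adjusted p = 0.00830), but not past the threshold without NA4 and WT4 (limma adjusted p = 0.122). Mgst1 fell by 0.38 (limma adjusted p = 0.0427), a call lost when any 1 of the 8 libraries was left out, and without NA4 and WT4 (limma adjusted p = 0.139).

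The list of NRF2, KEAP1 and their targets had 16 tested genes, 2 of them higher (12.5%) and none lower at the limma adjusted threshold. Over all tested genes the shares were 10.1% and 7.87%. At an unadjusted limma p below 0.05, 4 were higher and 0 lower, beside 16.9% and 15.6% of all tested genes. NRF2 is the transcription factor that drives many antioxidant genes, and KEAP1 marks it for degradation. Maff, a small Maf protein that can pair with NRF2, had 152, 236, 257 and 179.5 normalised counts in NA and 10.7, 195, 34.2 and 66.6 in WT. The groups overlapped at WT2, and the log2 difference of 2.07 (limma adjusted p = 0.0257) was 1.39 without WT1 and 2.74 without WT2, while the call was lost without NA2, NA3, NA4 or WT3. Nqo1, a quinone reductase and a well known NRF2 target, had a log2 difference of 0.97 (limma adjusted p = 0.0240), lost without NA2, NA4 or WT1. Without both NA4 and WT4 neither passed, at limma adjusted p-values of 0.0810 for Maff and 0.144 for Nqo1. Fth1, the ferritin heavy chain and the most abundant gene of the list, averaged 6678 ± 608 in NA and 7339 ± 890 in WT, with a log2 difference of −0.13 (limma adjusted p = 0.347). The median of the list was 0.01.

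**Figure D5:**
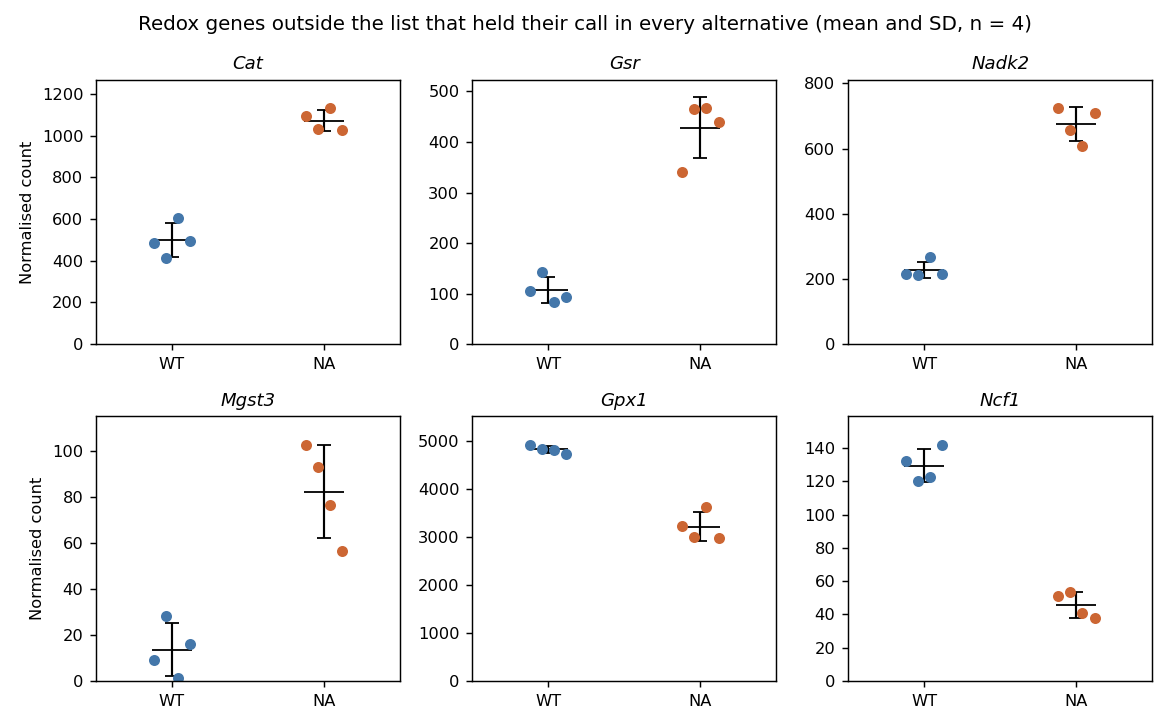
Normalised counts (y axis, from 0) of the 6 other redox genes whose call held in every alternative setting in which the gene was tested. There is 1 point per library, with bars for the mean and SD of 4. Cat, Gsr, Nadk2 and Mgst3 are separated upwards in NA, and Gpx1 and Ncf1 downwards.

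Of 11 tested genes that supply NADPH, 2 rose and 2 fell (18.2% each, beside 10.1% and 7.87% of all tested genes). The median was −0.13. Nadk2, the mitochondrial kinase that makes NADP+ from NAD+, had 724, 658, 609 and 709 normalised counts in NA and 217, 212, 266 and 217 in WT. No library overlapped, and the log2 difference was 1.57 (limma adjusted p = 7.00e-07). Idh1, the isocitrate dehydrogenase of the cytosol, rose by 0.49 (limma adjusted p = 0.0244, lost without NA4, WT2 or WT4). Its mitochondrial counterpart Idh2 fell by 0.36 (limma adjusted p = 0.0292, lost without NA2, NA3, NA4, WT1, WT3 or WT4). Nnt, the mitochondrial transhydrogenase that yields NADPH, fell by 0.35 (limma adjusted p = 0.0414), and the call was kept without WT3 but lost without any 1 of the other 7 libraries. Without NA4 and WT4 the limma adjusted p-values were 0.184 for Idh1, 0.164 for Idh2 and 0.271 for Nnt.

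Of 7 tested genes of the NADPH oxidase, which makes superoxide, and its regulators, 3 fell (42.9%) and none rose at the limma adjusted threshold. The oxidase genes Cybb (averages of 0.923 in NA and 0.285 in WT) and Nox4 (0 and 3.32) were too low to test. The values here therefore cover other subunits and regulators, and do not show how much oxidase the cells had. Over all tested genes 7.87% fell and 10.1% rose. At an unadjusted limma p below 0.05, 5 were lower and 0 higher, beside 15.6% and 16.9% of all tested genes. The median was −0.32. Ncf1, a cytosolic subunit of the phagocyte oxidase, had 51.3, 53.6, 40.6 and 37.8 normalised counts in NA and 132, 120, 123 and 142 in WT. The groups were far apart, with a log2 difference of −1.49 (limma adjusted p = 0.000209). Cyba, a membrane subunit, fell by 0.72 (limma adjusted p = 0.0373), a call lost without NA2, NA4, WT1, WT2 or WT4, and without both NA4 and WT4 (limma adjusted p = 0.221). The GTPase gene Rac2 fell by 0.32 (limma adjusted p = 0.0134), which was not called without NA4 and WT4 (limma adjusted p = 0.0871). The monocyte sum and the granulocyte sum given above, the latter mostly Prtn3, were also lower in NA. Their part in these values was not tested.

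Among 11 redox-linked regulators of stem cells, Foxo3 rose (9.1%) and none fell at the limma adjusted threshold. Over all tested genes 10.1% rose and 7.87% fell. At an unadjusted limma p below 0.05, 1 was higher and 2 lower, beside 16.9% and 15.6% of all tested genes. The median was 0.06. Foxo3, a transcription factor known for protecting blood stem cells from oxidative stress, averaged 616 ± 35.0 normalised counts in NA and 467 ± 26.1 in WT. The groups did not overlap, with a log2 difference of 0.40 (limma adjusted p = 0.00972), and the call was lost without NA4 and WT4 (limma adjusted p = 0.148). Sirt3, the mitochondrial deacetylase, averaged 1139 ± 102 and 1337 ± 61.5, with a log2 difference of −0.24 that did not pass (limma adjusted p = 0.0725).

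The genes whose log2 values followed Prdx3 most closely over the 8 libraries were ranked among 8999 tested genes with a mean of at least 50. The most alike were Hlf, a transcription factor of blood stem cells (Pearson r = 0.994), Qrich1 (0.994), the heparan sulphate proteoglycan gene Sdc4 (0.991), the chromatin protein gene Hmgb2 (0.990) and the oxysterol-binding protein gene Osbp (0.990). The least alike were Xist (−0.995), Arhgdib (−0.993), Ubap2l (−0.991), ENSMUSG00000090554 (−0.990) and Hsd3b7 (−0.988). The 8 points fall into 2 groups, so these values mostly restate the difference between NA and WT. With the group means removed, r lay between 0.303 for Sdc4 and 0.716 for Hlf among the 5 most alike. Among the 10 genes, r with Prdx3 within groups ranged from −0.692 for Txnrd2 to 0.636 for Sod2, with 0.625 for Txn2, 0.547 for Prdx4 and 0.293 for Prdx2.

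Around Prdx3 on chromosome 19, 5 genes within 250 kb were abundant enough to test. Fam45a, 27.8 kb from Prdx3, averaged 121 ± 26.5 normalised counts in NA and 41.0 ± 14.0 in WT, a log2 difference of 1.56 (limma adjusted p = 0.00113). Sfxn4, the nearest at 2.6 kb, averaged 104 ± 26.7 and 111 ± 24.4, with a log2 difference of −0.11 (limma adjusted p = 0.769). The differences of Grk5 (−0.52), Eif3a (0.11) and Zfp950 (0.04) did not pass the test.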

How the data were processed

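RNA was sequenced from 8 libraries, 4 NA and 4 WT, grouped by their titles. Per the labels, the authors used bcl2fastq, RSEM, DESeq2 and the mm10 build. The deposited table is a signal, RSEM counts that the authors had divided by 1 size factor per library, although its file is named as raw counts. Only low nonzero values of each library were checked for a step. Of these, 98.3% to 98.8% were whole multiples of 1 step within 0.02 reads. Dividing all values by the step estimated depth. The test used limma (3.58.1, R 4.3.3) after adding 1 to the values and taking log2, and took genes that reached 10 in 4 or more libraries. It had a mean-variance trend, no covariate and Benjamini-Hochberg adjustment over 11451 genes at 0.05. Fold changes on that scale understate the change of low genes. In simulated data the fit recovered 97% of 2-fold and 100% of 3-fold changes over 11476 genes, with 16 false calls. The simulation changed 200 genes, fewer than were called in the real libraries. It gave every gene the same dispersion and drew all libraries independently. The real libraries may differ in these respects, so these rates need not hold for them.

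Names and positions came from GENCODE M21, which matched 32916 rows. Lengths are means over coding transcripts. The members and lists were chosen with earlier results of these data known. All 10 members passed the filter. Genes named were the 10 members, the called redox genes, up to 3 more per list by size of difference or abundance, the 5 genes most and least like Prdx3, and Hoxa10, Xist and Eif2s3y. Naming 20 called genes, where the rule gave the 12 with the largest differences first, was decided after their values were seen. So was naming the neighbours of Prdx3 and genes that overlap a member (Junb, Rnaseh2a, Trmt112). The same holds for the untested Cybb and Nox4, and for single marker genes (Cd48, Ly6a, Car1, Car2, Hbb-bt, Elane, Prtn3, Gata2, Cpa3). Replicate numbers did not pair the libraries, and strand use was not given in the sources used here.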

Additional observations from a re-analysis of the deposited data

Results flagged for a closer look

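Dixon's test on 62 groups of 4 libraries set apart 3 values, where chance gives about 3.1. Prdx1 had 1444 normalised counts in WT3, above 1237 to 1251 in the other WT libraries. Txnrd2 had 323 in NA3, above 281 to 284 in the other NA libraries. Nadk2 had 266 in WT3, above 212 to 217 in the other WT libraries, and still far below its lowest NA value of 609.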

How the results depend on the processing

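The log2 difference of Prdx3 lay between 1.59 and 1.74 over all 19 alternatives run. The count of 8 redox genes higher in NA fell to 4 without NA4 and WT4 and was 5 to 10 when 1 library was left out. The count of 12 lower genes was 7 without the filter on low values, 4 without the mean-variance trend, 2 without NA4 and WT4 and 5 to 14 with 1 library left out. Over all genes, 1152 higher calls became 379, and 901 lower calls 145, without NA4 and WT4 (72.3% higher against 56.1%). They were 675 to 1186 and 450 to 1001 with 1 library left out, and 595 were lower without the trend. The difference in Prdx3 share was 9.56 points with the longest transcript, 8.0 with no length division and 6.55 to 7.21 with 1 library left out. The cause of these changes was not tested. The replicate block gave 9 higher and 10 lower redox genes and 1145 and 859 over all genes, although r of the deviations of same-numbered libraries was only −0.001 to 0.171. Under the block Nnt and Cyba were not called. Of 20 called redox genes, 14 lost the call in at least 1 alternative and none changed sign. The deposited values are divided by size factors, and the planned count-model alternatives (edgeR and DESeq2) on recovered reads were not run.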
